A study of Mus musculus with 12 samples.

Results

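The genes of retinoic acid transport, synthesis, breakdown and reception were examined in 2 RNA-Seq experiments on mouse osteoblast-lineage cells. The 9 genes *Crabp1*, *Crabp2*, *Rbp4*, *Rara*, *Rarb*, *Rarg*, *Aldh1a2*, *Aldh1a3* and *Cyp26b1* were taken by name from 23284 genes listed for sorted osteoblasts and 24346 listed for MC3T3-E1 cells, and all 9 were listed in both. They were chosen because *Crabp1* showed the largest fall of any protein-coding gene in MC3T3-E1 cells overexpressing *Slpi*, the secretory leukocyte protease inhibitor. The values of that comparison are therefore given as a description with no test, and the comparison of PTH with vehicle was tested. All 9 genes were chosen with earlier results of these data known, so the tests with PTH may not be free of that choice. In the first experiment, 3 vehicle (PBS) and 3 PTH libraries were made from osteoblasts of female Col2.3-ECFP mice, aged 12 weeks when treatment began. In these mice a type I collagen promoter drives a cyan reporter in mature osteoblasts. The mice received subcutaneous vehicle or 40 µg/kg of PTH(1-34), the active N-terminal fragment of parathyroid hormone, a day, 5 days a week, over 3 weeks. Cells that were ECFP+ and negative for 7AAD, lineage markers and CD45 were sorted from digested bone 24 h after the last injection. In the second experiment, 3 mock and 3 Slpi libraries were made from MC3T3-E1, a pre-osteoblast line from mouse calvaria. The mock cells carried the empty retroviral vector and the Slpi cells the same vector with *Slpi* cDNA, both selected with puromycin as stable transformants. The labels do not give the number of mice behind a library or say whether the MC3T3-E1 libraries came from separate cultures, so *p* values measure the spread between these libraries, which may be technical.

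Vitamin A reaches cells as retinol, carried in blood by retinol binding protein 4 (*Rbp4*). Inside the cell, retinol is oxidized to retinal and then, by the retinal dehydrogenases *Aldh1a1*, *Aldh1a2* and *Aldh1a3*, to retinoic acid, which *Cyp26b1* and its relatives break down. The cellular binding proteins *Crabp1* and *Crabp2* hold retinoic acid in the cytoplasm and, for *Crabp2*, deliver it to the nucleus, where the receptors *Rara*, *Rarb* and *Rarg* bind DNA as partners of the retinoid X receptors. Retinoic acid patterns the limb skeleton and controls the maturation of cartilage, and vitamin A in excess is known to thin bone.

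On mm10, *Crabp1* lies on chromosome 9 at 54764748 to 54773110 (plus strand) and *Crabp2* on chromosome 3 at 87948666 to 87953376 (plus strand). *Rbp4* lies on chromosome 19 at 38116629 to 38125281 (minus strand). The receptor genes *Rara*, *Rarb* and *Rarg* lie on chromosomes 11, 14 and 15, and *Rarb*, the longest, spans 16430839 to 16819156 on the minus strand. *Aldh1a2*, *Aldh1a3* and *Cyp26b1* lie on chromosomes 9, 7 and 6. Promoter windows of 300 bases, from 250 bases before a transcription start to 50 bases after it, were read from RefSeq on GRCm38.p6, the assembly of mm10. Of the 9 genes, 7 had 12 such windows, and *Crabp2* and *Aldh1a3* had none. Each window was searched on both strands for the GC box GGGCGG, the TATA box TATAAA, the cAMP response element TGACGTCA and direct repeats, spaced by 1, 2 or 5 bases, of the receptor half-site AGGTCA, taken also with G as the first or T as the third base. Retinoic acid receptors bind such repeats. The windows of 3 genes are printed 5′ to 3′ with the matches in capitals, for the gene with the largest difference between mock and Slpi cells, for the receptor gene that itself is a known target of retinoic acid, and for the one of the 9 that rose most with PTH.
Crabp1 (chr9:54764498-54764797, plus strand): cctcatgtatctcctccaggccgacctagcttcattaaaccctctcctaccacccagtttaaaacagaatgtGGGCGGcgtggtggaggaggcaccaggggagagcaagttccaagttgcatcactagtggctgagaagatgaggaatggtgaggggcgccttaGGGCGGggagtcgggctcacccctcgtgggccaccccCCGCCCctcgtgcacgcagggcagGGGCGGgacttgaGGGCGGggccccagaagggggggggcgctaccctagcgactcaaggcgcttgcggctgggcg
Rarb (chr14:16575427-16575726, minus strand): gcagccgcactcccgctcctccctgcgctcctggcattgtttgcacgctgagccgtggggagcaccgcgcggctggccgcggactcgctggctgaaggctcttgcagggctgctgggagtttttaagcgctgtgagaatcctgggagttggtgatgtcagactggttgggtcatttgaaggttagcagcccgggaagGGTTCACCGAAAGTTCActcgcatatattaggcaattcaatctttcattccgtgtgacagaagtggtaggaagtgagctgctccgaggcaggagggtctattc
Rbp4 (chr19:38124762-38125061, minus strand): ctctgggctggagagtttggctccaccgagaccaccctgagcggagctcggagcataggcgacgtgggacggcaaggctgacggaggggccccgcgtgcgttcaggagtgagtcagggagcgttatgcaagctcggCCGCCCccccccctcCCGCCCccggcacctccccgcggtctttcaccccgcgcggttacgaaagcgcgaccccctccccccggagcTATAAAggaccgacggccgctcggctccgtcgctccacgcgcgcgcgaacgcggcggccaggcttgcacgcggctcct
The *Crabp1* window held 5 GC boxes and 65% G or C, against a median of 52.7% over 32851 windows of all genes, of which 35.7% held a GC box. The *Rarb* window, which lies at a start within the span of the gene, held the repeat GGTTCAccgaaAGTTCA, which began 53 bases before the start. This was the only repeat with a spacing of 5 bases among the 12 windows, and 0.0974% of all windows held one. Among other genes of the pathway, *Cyp26a1* held one as well, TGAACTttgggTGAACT on the opposite strand, beginning 32 bases before its start. The *Rbp4* window, at 1 of its 2 starts, held 2 GC boxes and a TATA box, which 13.6% of all windows held. No window of the 9 genes held the cAMP response element, present in 1.79% of all windows, or a repeat spaced by 1 or 2 bases, present in 0.222% and 0.268%.

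The deposited values were FPKM, the fragments counted on a gene relative to transcript length and library size, so levels of different genes can be set side by side within a library. *Slpi* itself went from 1.64, 2.38 and 2.62 FPKM with vehicle to 37.5, 19.8 and 27.2 with PTH, and from 377.2, 395.6 and 386.0 in mock to 2105, 1973 and 1848 in Slpi cells. Relative to the first library of its experiment, the depth of a sorted library was 0.787 to 1.40 and that of an MC3T3-E1 library 0.870 to 1. *Bglap*, the osteocalcin gene, was at 6963 to 14280 FPKM in sorted osteoblasts and at 1.05 to 2.85 in MC3T3-E1 cells. *Col1a1*, a type I collagen gene, was listed at 0 in vehicle replicate 3 and in all 3 PTH libraries, but at 26216 and 24170 FPKM in the other two vehicle libraries, so an exact 0 in these files may not be an absence. The sorted libraries also held genes of other cells that moved with PTH. Of 11 neutrophil markers 7 rose in the test described below, beside 6.38% of all tested genes. Their summed level went from 377.7 to 471.0 with vehicle to 703.2 to 2363 with PTH. Of 7 tested T cell markers 5 fell, beside 8.85% of all tested genes, and the sum of the 8 listed went from 93.6 to 142.6 to 3.09 to 22.5. Cardiac muscle markers summed to 3547 FPKM in PTH replicate 2 and to at most 19.98 in each other sorted library. In such bulk samples, fewer cells of a type and less RNA per cell cannot be told apart.

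**Figure D1:**
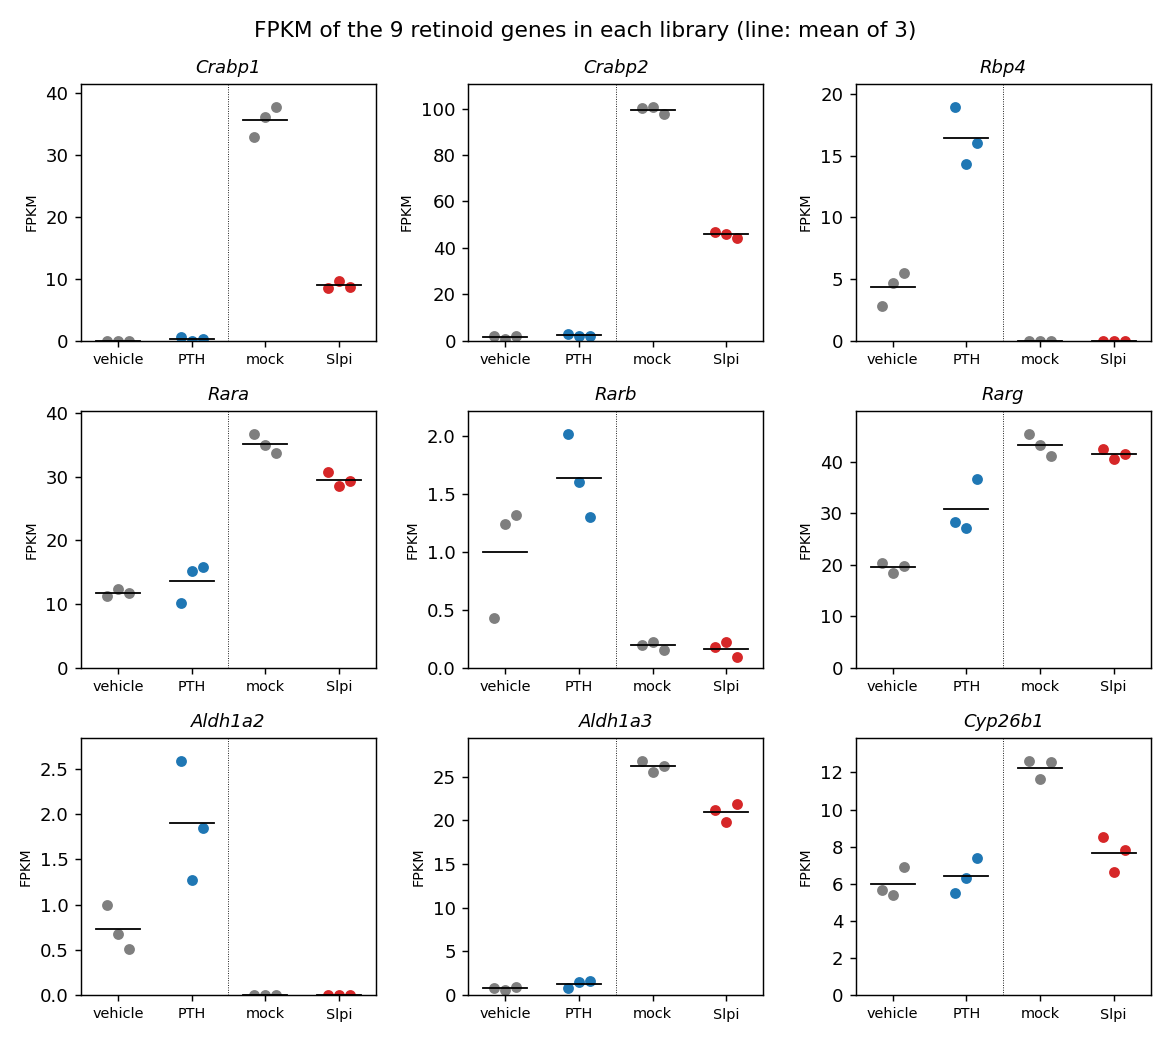
FPKM of the 9 genes in the 12 libraries, with 1 point per library and a line at the mean of 3. Each panel has its own axis from 0, and a dotted line separates sorted osteoblasts (vehicle, PTH) from MC3T3-E1 cells (mock, Slpi). The mock and Slpi points of *Crabp1* and *Crabp2* lie far apart, and those of *Rbp4* and *Aldh1a2* all lie at 0.

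With PTH, *Rbp4* and *Rarg* rose in sorted osteoblasts and no tested gene of the 9 fell. The test was limma on log2(FPKM + 1) over the 13004 genes that reached 1 FPKM in 1 or more of the 6 libraries, with *p* adjusted by the Benjamini-Hochberg method, and fold changes on this scale understate those of low genes. Of the 9 genes 8 were tested, and *Crabp1* was below the limit. *Aldh1a2* and *Aldh1a3* reached 1 FPKM only with PTH, so the limit itself favoured a higher value with PTH for these genes. Both are kept in the counts and the median that follow. The 2 of 8 that rose stand beside 6.38% of all tested genes that rose and 8.85% that fell. Of the 8, only *Rbp4* rose at least 2-fold on this scale, beside 0.869% of all tested genes that did so and 3.78% that fell as much. The groups did not overlap for *Crabp2*, *Rbp4*, *Rarg* and *Aldh1a2*, all higher with PTH, beside 19.5% of all tested genes with every PTH library above every vehicle library. The median log2 fold change of the 8 tested genes was 0.42, and that of all tested genes 0.0066. Of all genes that passed the adjusted threshold, 41.9% were higher with PTH, and 31.4% when FPKM were scaled to the same sum in each library.

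*Rbp4*, the plasma carrier of retinol that the liver and fat are known to secrete, was at 2.82, 4.68 and 5.50 FPKM with vehicle and at 18.97, 14.3 and 16.1 with PTH. Every PTH library stood well above every vehicle library. Its mean rose from 4.33 ± 1.38 to 16.5 ± 2.34 FPKM (SD, n = 3 libraries each), a ratio of 3.80, with a log2 fold change of 1.74 (SE 0.216, adjusted *p* = 0.0138 by limma). The call was lost without vehicle replicate 1 or 2 (adjusted *p* = 0.0734 and 0.0736 by limma), with log2 fold changes of 1.51 and 1.80. Without vehicle replicate 2, no gene of the whole table passed the adjusted threshold in limma, against 133 higher and 482 lower genes of at least 2-fold change at an unadjusted *p* under 0.05. Of 6 liver markers, *Serpina1a* was the 1 that rose, beside 6.38% of all tested genes. It passed the limit of 1 FPKM through PTH libraries alone, so it had to be high there to be tested. The sum of the 6 was 3.89 to 5.17 FPKM with vehicle and 4.08 to 26.7 with PTH. *Alb*, the albumin gene that defines liver, was at 0, 0 and 0.127 FPKM with vehicle and at 0.152, 0 and 8.02 with PTH. *Serpina1a* was at 0.310, 0 and 0.0771 FPKM with vehicle and at 1.48, 1.48 and 0.956 with PTH. *Ttr* was the 1 of the 6 with a negative log2 fold change, at -0.07 (adjusted *p* = 0.850 by limma). Its mean was 2.03 FPKM with vehicle and 1.89 with PTH. The highest sum, 26.7 FPKM, was that of PTH replicate 3, where *Apoa1* and *Apoa2* were also highest, at 7.03 and 7.49 FPKM. *Rbp4* was highest in PTH replicate 1. The part of these liver markers in the *Rbp4* result was not tested. The sum of the 8 marrow stromal and adipocyte markers was 51.0 to 68.9 FPKM with vehicle and 44.0 to 62.8 with PTH, with *Adipoq*, which defines fat cells, at 1.37 to 2.91 and at 0 to 0.975. Of the 7 of them tested, *Lepr*, the leptin receptor gene of marrow stroma, was the 1 that passed the test. Of all tested genes 6.38% rose and 8.85% fell. *Lepr* rose from 2.499 to 3.503 FPKM with vehicle to 4.54 to 4.98 with PTH (adjusted *p* = 0.0484 by limma). The *Rbp4* promoter window printed above is the one with a TATA box.

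Among the receptors, *Rarg*, the one most abundant in cartilage and skin, was at 20.3, 18.4 and 19.8 FPKM with vehicle and at 28.4, 27.2 and 36.7 with PTH. The groups did not overlap, and PTH replicate 3 was the highest. The mean rose from 19.5 ± 0.959 to 30.7 ± 5.18 FPKM, a ratio of 1.57, with a log2 fold change of 0.62 (SE 0.134, adjusted *p* = 0.0305 by limma). The call was lost without any one of vehicle replicates 1, 2 and 3 or PTH replicate 1 (adjusted *p* = 0.105, 0.113, 0.0597 and 0.0673 by limma), with log2 fold changes between 0.49 and 0.70 over the 6 fits that each leave out a library. Markers of 2 cell types were set beside this. Of 10 osteoblast markers 2 rose, *Alpl* and *Spp1*, and 0 fell, beside 6.38% and 8.85% of all tested genes. *Alpl* was at 205.1, 184.9 and 216.1 FPKM with vehicle and at 294.1, 260.7 and 377.8 with PTH. Of 6 cartilage cell markers 3 rose (*Acan*, *Sox9* and *Comp*) and 0 fell, beside the same 6.38% and 8.85% of all tested genes. The sum of all 6 went from 709.5 to 835.4 FPKM with vehicle to 842.2 to 987.7 with PTH. Most of that sum was *Col2a1*, which did not pass the test. Its mean was 613.3 FPKM with vehicle and 629.4 with PTH (log2 fold change 0.0337). The part of these markers in the *Rarg* result was not tested.

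*Rara*, the receptor that most cell types express, did not pass the test. It was at 11.2, 12.4 and 11.8 FPKM with vehicle and at 10.1, 15.1 and 15.8 with PTH, with a log2 fold change of 0.18 (SE 0.173, adjusted *p* = 0.499 by limma). One PTH library lay below all vehicle libraries and the other two lay above them. *Rarb* was at 0.427, 1.24 and 1.32 FPKM with vehicle and at 2.02, 1.60 and 1.30 with PTH, and the groups overlapped. Its log2 fold change was 0.43 (SE 0.245, adjusted *p* = 0.263 by limma). Divided by the smallest step between FPKM values of the gene, these levels are 7, 16 and 29 reads with vehicle and 37, 33 and 30 with PTH, numbers that are too low if a step stands for more than 1 read. *Rarb* shares its place in the genome with *Top2b* on the other strand, so its value is uncertain where the counting did not use strand.

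Of the enzymes, none passed the test with PTH. *Aldh1a2*, which makes most retinoic acid in the embryo, was at 0.989, 0.676 and 0.512 FPKM with vehicle and at 2.58, 1.27 and 1.84 with PTH. Its groups did not overlap and its means differed by a ratio of 2.62, but its log2 fold change of 0.73 had an adjusted *p* of 0.0719 in limma (SE 0.229), between 0.0555 and 0.196 over 14 alternatives. These levels rest on 13, 7 and 9 reads with vehicle and 38, 21 and 34 with PTH, counted by the same step. *Aldh1a3*, a retinal dehydrogenase of epithelia and sense organs, was at 0.784, 0.560 and 0.879 FPKM with vehicle and at 0.789, 1.45 and 1.61 with PTH. One PTH library lay within the vehicle range, and the log2 fold change was 0.38 (SE 0.216, adjusted *p* = 0.267 by limma). *Cyp26b1*, the retinoic acid hydroxylase of the developing limb, was at 5.64, 5.39 and 6.89 FPKM with vehicle and at 5.51, 6.33 and 7.40 with PTH. Its groups overlapped almost entirely (log2 fold change 0.09, SE 0.150, adjusted *p* = 0.710 by limma), and the sign turned without PTH replicate 3, to -0.0079.

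The cellular binding proteins were scarce in sorted osteoblasts. *Crabp1* was listed at 0 in all vehicle libraries and at 0.525, 0 and 0.209 FPKM with PTH, the last library and the first resting on 1 and 2 reads by step. It was not tested, and no fold is given against a group at 0. *Crabp2* was at 1.81, 0.861 and 1.86 FPKM with vehicle and at 2.83, 1.98 and 2.10 with PTH, or 8, 3 and 11 reads against 14, 11 and 13. The PTH values all lay above the vehicle values, but the log2 fold change of 0.41 did not pass the test (SE 0.223, adjusted *p* = 0.238 by limma).

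**Figure D2:**
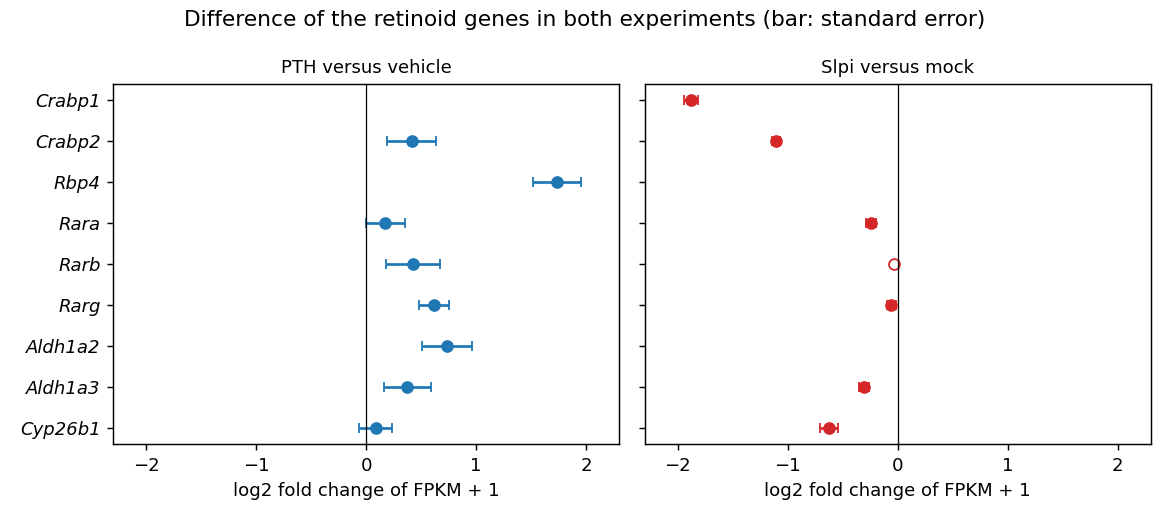
Log2 fold change of FPKM + 1 for each of the 9 genes, PTH minus vehicle on the left and Slpi minus mock on the right. Filled points passed the limit on low values and carry a bar of 1 standard error, the open point did not pass it, and genes listed at 0 in a whole group have no point. *Rbp4* has the largest value on the left at 1.74 and *Crabp1* the lowest on the right at -1.88.

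In MC3T3-E1 cells the order of abundance was different, and in mock cells the binding proteins were among the highest of the 9 genes. *Crabp2* was at 100.4, 100.7 and 97.8 FPKM in mock and at 47.0, 45.8 and 44.4 in Slpi cells. Its mean went from 99.6 ± 1.60 to 45.7 ± 1.33 FPKM, 2.18-fold lower, with a log2 fold change of -1.11 (SE 0.0333). *Crabp1* was at 32.8, 36.1 and 37.7 FPKM in mock and at 8.54, 9.69 and 8.62 in Slpi cells. No Slpi library came near the mock range. Its mean went from 35.6 ± 2.51 to 8.95 ± 0.640 FPKM, 3.97-fold lower, with a log2 fold change of -1.88 (SE 0.0636). These values chose the genes. The next protein-coding gene in the order of falls was *Nov*, a matricellular gene of the CCN family, at -1.84, and *Nov* took the first place without mock replicate 2 or Slpi replicate 3. With a pseudocount of 0.1 in place of 1, *Emc9* came first at -1.99 and *Crabp1* second at -1.98.

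The receptors and enzymes differed less between mock and Slpi cells. *Rara* was at 36.7, 34.9 and 33.7 FPKM in mock and at 30.7, 28.5 and 29.2 in Slpi cells, with a log2 fold change of -0.24 (SE 0.0436) and no overlap. *Rarg* was at 45.3, 43.2 and 41.1 FPKM in mock and at 42.5, 40.5 and 41.5 in Slpi cells, and these ranges overlapped. *Rarb* was below the limit, at 0.196, 0.226 and 0.154 FPKM in mock and at 0.175, 0.225 and 0.095 in Slpi cells. Of the enzymes among the 9 genes, *Cyp26b1* and *Aldh1a3* were present, and both were lower in every Slpi library than in any mock library. *Cyp26b1* was at 12.6, 11.6 and 12.6 FPKM in mock and at 8.51, 6.61 and 7.82 in Slpi cells, a log2 fold change of -0.62 (SE 0.0797). *Aldh1a3* was at 26.7, 25.5 and 26.2 FPKM in mock and at 21.2, 19.8 and 21.8 in Slpi cells, a log2 fold change of -0.31 (SE 0.0435). *Rbp4* and *Aldh1a2*, both measurable in sorted osteoblasts, were listed at 0 in all 6 MC3T3-E1 libraries.

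Of the 9 genes, 6 passed the limit on low values in MC3T3-E1 cells. The Slpi libraries lay below the mock libraries without overlap for 5 of them, beside 32.2% of all 11466 tested genes. At least 2-fold lower were *Crabp1* and *Crabp2*, beside 0.384% of all tested genes that were at least 2-fold lower, and 0.733% that were as much higher, at an adjusted *p* under 0.05 in limma. The genes were chosen for the fall of *Crabp1* in this comparison, so both counts are a description and test nothing. Of all genes past the adjusted threshold, 52.5% were higher in Slpi cells, and 35.3% when FPKM were scaled to the same sum. Of those changed at least 2-fold, 65.6% were higher, and 48.9% under that scaling. The osteoblast markers *Bglap*, *Sp7*, *Runx2*, *Alpl*, *Ibsp* and *Col1a1* rose and *Spp1* fell among 9 tested, beside 31.9% of all tested genes that rose and 28.9% that fell. The neutrophil markers summed to 1.03 to 1.66 FPKM in mock and 0.986 to 2.10 in Slpi cells. The cardiac markers summed to 0.938 to 1.14 and 0.359 to 0.513 FPKM. The T cell markers summed to 24.5 to 27.2 FPKM in mock and 16.2 to 17.2 in Slpi cells. Most of that was *Thy1*, at 24.4, 25.1 and 27.1 FPKM in mock and 17.0, 16.15 and 17.2 in Slpi cells. Listed at 0 in all 6 libraries were the neutrophil genes *S100a9*, *Ngp*, *Elane* and *Retnlg* and the cardiac genes *Myh6*, *Myh7* and *Myl7*. So were the T cell genes *Cd3e*, *Cd3d*, *Cd3g*, *Cd2*, *Cd8a* and *Il7r*. The other listed genes of these lists were above 0 in at least 1 library.

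The make-up of each family was compared as shares of its summed FPKM. *Crabp1* made up 26.3% ± 1.60 of the 2 binding proteins in mock and 16.4% ± 1.04 in Slpi cells. The summed level of both went from 133.2 to 136.9 FPKM in mock to 53.0 to 55.6 in Slpi cells. It was 0.861 to 1.86 FPKM with vehicle and 1.98 to 3.35 with PTH. *Rarg* made up most receptor RNA in all 12 libraries. Its share was 60.4% ± 3.01 with vehicle and 66.7% ± 4.27 with PTH (*p* = 0.2, exact two-sided permutation test, n = 3 each), and that of *Rara* was 36.5% ± 1.85 and 29.6% ± 4.75 (*p* = 0.1 in the same exact test). With 3 libraries against 3, this test cannot give a *p* below 0.1, and the Benjamini-Hochberg adjustment over the shares could only raise it. In MC3T3-E1 cells the *Rarg* share was 55.04% ± 0.213 in mock and 58.3% ± 0.392 in Slpi cells. The summed receptors were at 32.0 to 32.9 FPKM with vehicle, 40.5 to 53.8 with PTH, 74.995 to 82.2 in mock and 69.2 to 73.4 in Slpi cells.

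The mix of retinal dehydrogenases also stood apart in the 2 kinds of cells. In sorted osteoblasts, *Aldh1a1* made up 58.3% ± 21.3, *Aldh1a2* 20.9% ± 13.4 and *Aldh1a3* 20.8% ± 9.14 of the 3 with vehicle. With PTH these shares were 41.1% ± 12.3, 34.8% ± 11.2 and 24.03% ± 10.1. For the *Aldh1a2* share, the exact two-sided permutation test gave *p* = 0.2 (n = 3 each). This test cannot go below 0.1 here, so it cannot decide whether the share differed. *Aldh1a3* made up 97.0% ± 1.01 in mock and 95.2% ± 0.445 in Slpi cells. The 2 experiments were normalized separately and used other cells, so levels across them stand side by side with no test.

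**Figure D3:**
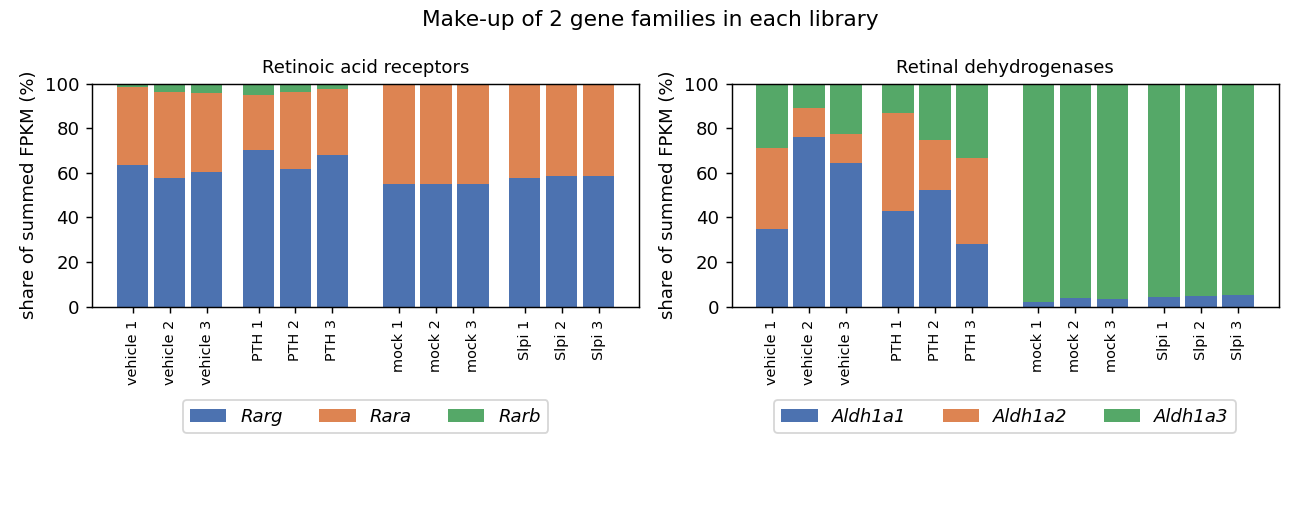
Shares of summed FPKM, in percent, of the 3 retinoic acid receptors (left) and of 3 retinal dehydrogenases (right), with 1 bar per library. *Rarg* is the largest part of each bar on the left, and *Aldh1a3* fills nearly all of the mock and Slpi bars on the right, while the sorted osteoblast bars are mixed.

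Ordered by mean FPKM, the genes with vehicle ran from *Rarg* over *Rara*, *Cyp26b1*, *Rbp4*, *Crabp2*, *Rarb*, *Aldh1a3* and *Aldh1a2* to *Crabp1*. The ranges of the libraries overlapped between *Cyp26b1* and *Rbp4* and between each pair of neighbours from *Crabp2* to *Aldh1a2*. With PTH, *Rbp4* stood second, overlapping with *Rara* after it, and *Cyp26b1* came next with no overlap to either side. From *Crabp2* over *Aldh1a2* and *Rarb* to *Aldh1a3*, neighbours again overlapped. In mock cells the order was *Crabp2*, *Rarg*, *Crabp1*, *Rara*, *Aldh1a3*, *Cyp26b1* and *Rarb*, of which only *Crabp1* and *Rara* overlapped as neighbours. In Slpi cells *Crabp1* was at rank 5, after *Crabp2*, *Rarg*, *Rara* and *Aldh1a3*, and no neighbours overlapped, although the lowest *Crabp1* library (8.54 FPKM) was close to the highest of *Cyp26b1* (8.51).

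A list of 46 other genes of the pathway held retinol carriers, retinol dehydrogenases, other enzymes, retinoid X receptors and cofactors. With PTH, 30 were tested, of which 2 rose, *Rdh12* and *Dhrs4*, and 2 fell, *Nr2f1* and *Rdh13*, 6.67% in each direction beside the 6.38% and 8.85% of all tested genes. None reached a 2-fold change on the log2(FPKM + 1) scale, and their median log2 fold change was -0.0042. In mean FPKM, *Rdh12* was 4.19-fold higher and *Nr2f1* 2.05-fold lower with PTH. *Rdh12*, a retinal reductase of the retina, was at 0.213, 0.542 and 0.239 FPKM with vehicle and at 1.43, 1.45 and 1.29 with PTH (log2 fold change 0.85, SE 0.194, adjusted *p* = 0.0334 by limma). It was low in both groups and passed the limit of 1 FPKM through the PTH libraries alone, so that it had to differ to be tested, and it was not tested when a mean of 1 FPKM was asked for. The call was lost when any single library was left out, with adjusted *p* in limma between 0.0624 and 0.121. *Nr2f1*, an orphan nuclear receptor known to compete for the same DNA elements, went from 3.17, 3.04 and 3.78 FPKM to 1.38, 1.68 and 1.81 (log2 fold change -0.72, SE 0.152, adjusted *p* = 0.0288 by limma). Its call was lost without any one vehicle library or PTH replicate 1, with adjusted *p* in limma between 0.0662 and 0.104. *Dhrs4* had a log2 fold change of 0.49 (adjusted *p* = 0.0486 by limma) and *Rdh13* one of -0.56 (adjusted *p* = 0.0492 by limma), both close to the threshold, and *Dhrs4* kept its call under 2 of 14 alternatives. *Rdh10*, the main retinol dehydrogenase of the embryo, was the next by *p*, at 7.94, 9.33 and 11.8 FPKM with vehicle and at 16.6, 13.2 and 14.96 with PTH. Its groups did not overlap, and its adjusted *p* was 0.0538 in limma with a log2 fold change of 0.58. *Rdh10* and *Rdh13* were named after their values were seen.

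In MC3T3-E1 cells 26 of the 46 genes were tested, of which 6 were higher and 10 lower in Slpi cells. These shares of 23.1% and 38.5% stand beside 31.9% and 28.9% of all tested genes, none of the 16 reached a 2-fold change on the log2(FPKM + 1) scale, and the median log2 fold change was -0.055. *Dhrs3*, a retinal reductase that retinoic acid is known to induce, was at 5.52, 5.50 and 5.30 FPKM in mock and at 2.04, 2.03 and 2.69 in Slpi cells. Its mean FPKM was 2.41-fold lower, and its log2 fold change was -0.99 (SE 0.0834, adjusted *p* = 3.09e-05 by limma). *Rdh11*, another retinal reductase, was at 36.2, 37.6 and 37.3 FPKM in mock and at 28.2, 27.5 and 28.6 in Slpi cells (log2 fold change -0.39, adjusted *p* = 3.51e-05 by limma). *Adh7*, an alcohol dehydrogenase that oxidizes retinol, was at 14.3, 16.3 and 16.2 FPKM in mock and at 22.3, 22.4 and 22.9 in Slpi cells (log2 fold change 0.50, adjusted *p* = 8.84e-05 by limma). All 3 passed the threshold under each of 14 alternatives. The other 5 higher genes were *Rdh13*, *Adh5*, *Fabp5*, *Rxrb* and *Ncor1*.

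**Figure D4:**
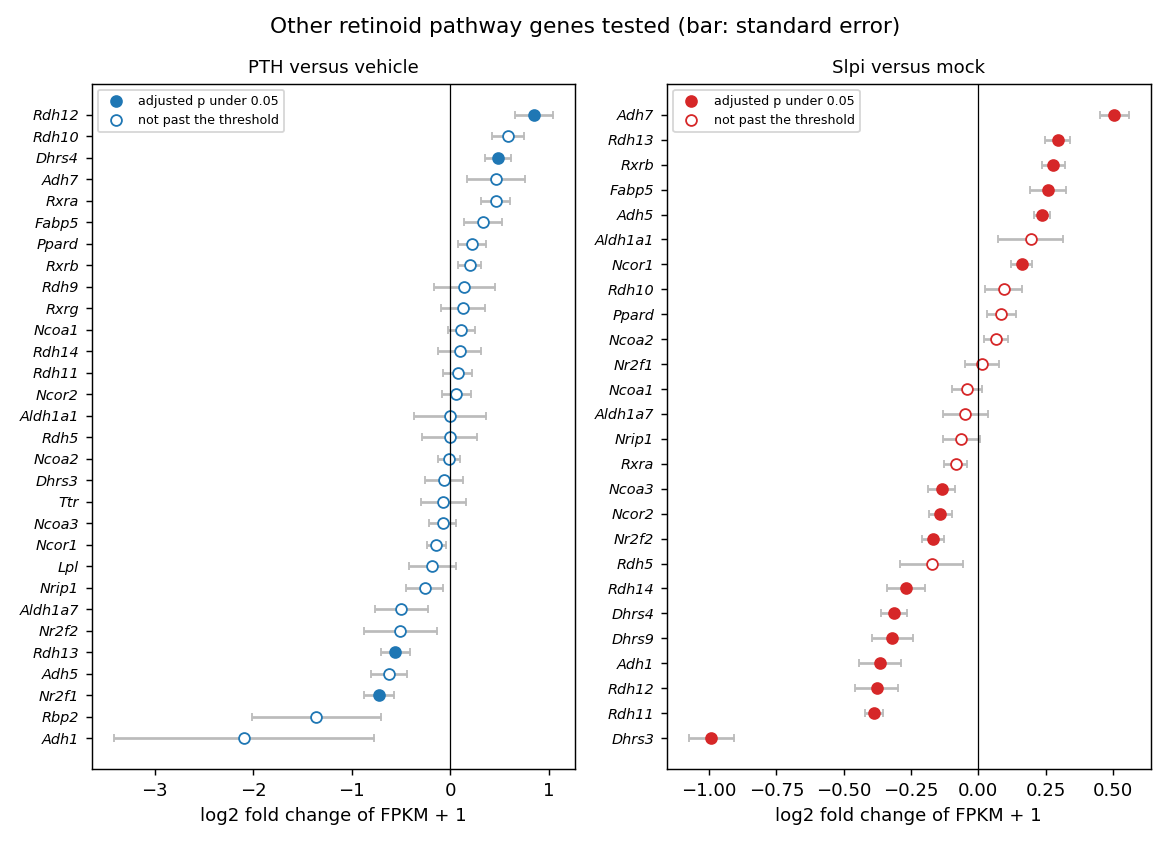
Log2 fold change of FPKM + 1 for the tested genes among 46 other retinoid pathway genes, PTH minus vehicle on the left (30 genes) and Slpi minus mock on the right (26 genes), each with its own axis. Bars are standard errors and filled points have an adjusted *p* under 0.05 in limma. Few points are filled on the left, and *Dhrs3* lies lowest on the right at -0.99.

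Genes known to respond to retinoic acid were listed as well, 18 in all, of which 3 belong to the 9 genes above. With PTH, 9 of the other 15 were tested and none passed the adjusted threshold in limma or under any of 14 alternatives, while 1, *Meis1*, had an unadjusted *p* under 0.05. *Meis1*, a homeobox gene of the limb, was at 1.40, 2.03 and 1.95 FPKM with vehicle and at 3.07, 2.43 and 3.21 with PTH (log2 fold change 0.48, SE 0.169, adjusted *p* = 0.0959 by limma). The next by *p* were *Rarres1*, with a log2 fold change of 0.67 (adjusted *p* = 0.151 by limma), and *Meis2*, with one of 0.50 (adjusted *p* = 0.152 by limma). In MC3T3-E1 cells 7 of the 15 were tested, of which *Dhrs3*, *Tgm2* and *Rarres2* fell and *Meis1*, *Meis2* and *Bhlhe40* rose. These shares, 42.9% in each direction, stand beside 28.9% of all tested genes that fell and 31.9% that rose. *Tgm2*, the tissue transglutaminase gene, was at 75.9, 77.9 and 72.9 FPKM in mock and at 49.8, 46.3 and 47.1 in Slpi cells (log2 fold change -0.65, SE 0.0401, adjusted *p* = 7.03e-06 by limma). *Rarres2* had a log2 fold change of -0.37. *Bhlhe40*, a transcription factor gene, was at 12.9, 12.9 and 11.6 FPKM in mock and at 16.0, 17.6 and 15.6 in Slpi cells (log2 fold change 0.37, adjusted *p* = 0.000780 by limma). The number that fell dropped from 3 to 2 without any one of the mock libraries, Slpi replicate 2 or Slpi replicate 3.

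The genes most like *Crabp1* were sought by the root mean square difference of log2(FPKM + 1) over the 12 libraries, after each gene was centred on its mean in each experiment. Among 10095 genes tested in both experiments, the closest were *Akap12* (0.238), *Slc26a7* (0.257), *Haghl* (0.277), *Xlr* (0.295) and *Entpd3* (0.298), against 0.685 for a gene with no change. *Akap12*, a scaffold protein of protein kinase A, went from a mean of 20.1 FPKM in mock to 6.93 in Slpi cells and was at 0.850 and 0.923 in vehicle and PTH libraries. *Slc26a7*, an anion transporter, went from 8.18 to 2.15 FPKM, and *Entpd3*, an enzyme that cleaves extracellular nucleotides, from 76.9 to 31.3. *Crabp2* was the closest of the 9 genes, at rank 6 (0.322), followed by *Cyp26b1* at rank 194, *Aldh1a3* at 1404, *Rara* at 2061 and *Rarg* at 3367. The likeness is a description that rests on the difference between mock and Slpi cells, since *Crabp1* was near 0 in sorted osteoblasts, and these genes were picked by it.

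**Figure D5:**
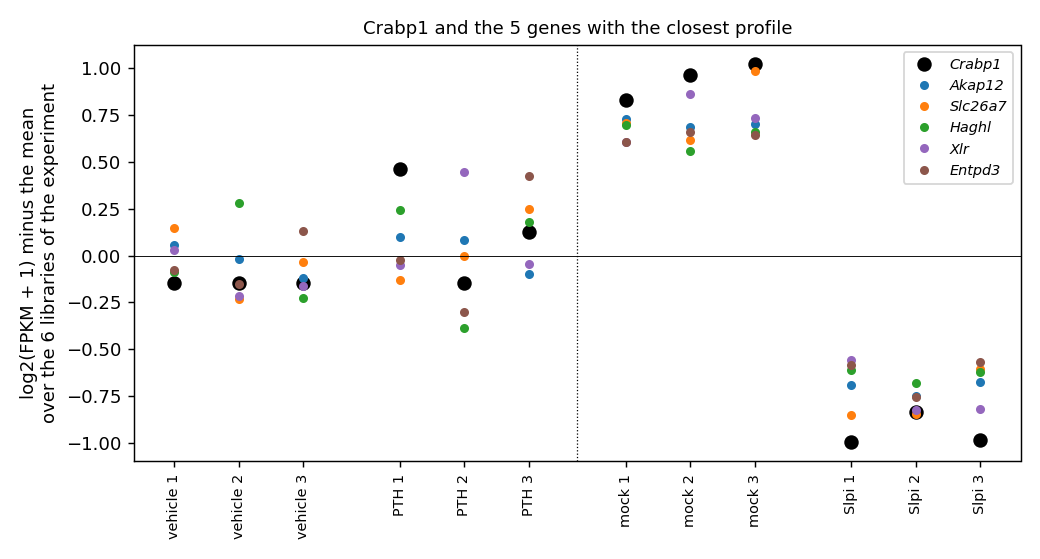
Log2(FPKM + 1) of *Crabp1* and its 5 closest genes in each of the 12 libraries, minus the gene's mean over the 6 libraries of its experiment. All 6 genes are above 0 in the 3 mock libraries and below 0 in the 3 Slpi libraries, and in sorted osteoblasts they scatter around 0.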

How the data were processed

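RNA-Seq values of 12 mouse libraries, 3 in each of 4 groups, were analysed. The authors deposited FPKM per gene and library. Per the labels and the study's methods, reads were mapped to mm10 with TopHat2 2.0.13, Bowtie2 2.2.3 and SAMtools 0.1.19, and FPKM were made by Cuffnorm of Cufflinks 2.2.1. The gene annotation and strand setting are not given in the sources used here. The osteoblast cDNA was amplified with SMART-Seq v4, while for MC3T3-E1 cells the labels name a TruSeq stranded kit and the paper the SMART-Seq kit. FPKM give no read totals. Relative depth and reads of low genes came from the steps between low FPKM, which are whole within 0.06 of a step, and cover counting error only. Amplified cDNA without molecular identifiers does not give independent molecules.

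Each experiment was fitted alone, as 3 libraries against 3, on log2(FPKM + 1), with limma 3.58.1 (R 4.3.3) and a trended eBayes. Genes entered when they reached 1 FPKM in 1 or more of the 6 libraries. A call is an adjusted *p* under 0.05. The model was tested on simulated data. Shares were compared by exact permutation tests in scipy 1.17.1 (Python 3.11.15, numpy 2.4.6, pandas 2.3.3, figures by matplotlib 3.10.9). No column of other samples was present. Names and positions follow mm10. Alternatives left out the filter, the trend, the moderation or each library in turn, asked for a mean of 1 FPKM, added 0.1 in place of 1, put the replicate number in the model, scaled FPKM to the same sum or normalized by quantiles. The 9 genes and all lists were chosen with earlier results of these data known. Named genes were the 9, *Slpi*, the 3 pathway and 3 response genes with the smallest *p* in each experiment beside any changed at least 2-fold, and the 5 genes most like *Crabp1*. A list of gut epithelium markers was chosen after the values were seen. Results of 1 gene of the pathway lists are not reported here, and the counts leave it out.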

Additional observations from a re-analysis of the deposited data

How the results depend on the processing

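Precision is limited by 3 libraries per group and, in sorted osteoblasts, by the few reads behind *Crabp1*, *Crabp2*, *Rarb*, *Aldh1a2* and *Aldh1a3*. Replicate numbers did not pair the libraries: the correlations of deviations between same-numbered libraries were 0.029, 0.073 and 0.102 in sorted osteoblasts and 0.039, -0.052 and -0.00026 in MC3T3-E1 cells. With the replicate block, 2 of the 9 genes rose with PTH as without it, the other pathway genes that rose with PTH went from 2 to 1, and 116 genes were at least 2-fold higher and 517 lower over the whole table.

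Over the whole table, 113 genes were at least 2-fold higher with PTH, and 182 with a pseudocount of 0.1, 172 with quantile normalization, 0 with an unmoderated model and 0 to 179 when a library was left out. The 491 lower genes became 0 with the unmoderated model, which called 122 higher and 505 lower at an unadjusted *p*, and 0 to 527 when a library was left out. The cause of these moves was not tested. Of all genes at least 2-fold changed with PTH, 18.7% were higher, and 28.9% after quantile normalization. Of the 9 genes, the 2 that rose became 0 with the unmoderated model and 0 to 2 when a library was left out. Of the other pathway genes with PTH, the 2 that rose became 1 without the filter or the trend, with a limit on the mean FPKM, with 0.1 added or at the same sum, 0 with the unmoderated model and 0 to 1 without a library. The 2 that fell became 1 with no filter, a pseudocount of 0.1 or no trend, 0 with the unmoderated model or quantile normalization and 0 to 2 without a library.

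In MC3T3-E1 cells, the 84 higher genes became 136 and the 44 lower genes 125 with a pseudocount of 0.1, and the lower genes 67 at the same sum. The 3 response genes that fell became 2 with the unmoderated model and 2 to 3 without a library. For *Cyp26b1* with PTH, the log2 fold change of 0.09 ran from -0.0079 without PTH replicate 3, where its sign turned, to 0.1782 without vehicle replicate 3. The *Crabp1* share with PTH, 8.24 points above vehicle, turned to -1.82 points when 1 was added to each FPKM, and the *Rarb* share in Slpi cells moved from -0.0116 to 0.109 points.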

Other observations

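*Adh1* and *Rbp2*, 2 pathway genes that gut epithelium is known to express, differed between libraries by more than between groups. *Adh1* was at 63.9, 105.3 and 77.2 FPKM with vehicle and at 57.0, 69.1 and 0.693 with PTH. *Rbp2* was at 1.01, 6.85 and 5.79 FPKM with vehicle and at 0.603, 2.96 and 0 with PTH, so PTH replicate 3 was lowest for both. The epithelial keratin gene *Krt19* was at 76.5, 126.4 and 95.0 FPKM with vehicle and at 50.02, 159.9 and 0 with PTH, and *Cdx1*, an intestinal homeobox gene that responds to retinoic acid, was at 0 in PTH replicate 3 and at 2.90 to 4.51 in the other sorted libraries. A list of 7 gut epithelium markers summed to 133.2 to 204.9 FPKM with vehicle and to 2.58 to 211.9 with PTH, and none of the 7 passed the adjusted or the unadjusted threshold in limma. These genes were chosen after their values were seen.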
